A study of Homo sapiens with 6 samples.

Results

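The transcription factors and splicing regulators that set the epithelial or mesenchymal state were examined in MDA-MB-231 cells with and without knockdown of the lncRNA Smyca. They comprised 10 named genes of the 58302 genes counted. There were 6 EMT drivers (SNAI1, SNAI2, ZEB1, ZEB2, TWIST1 and TWIST2) and 4 epithelial guardians (OVOL1, ESRP1, ESRP2 and GRHL2). All 10 symbols matched a gene in the files, and 6 of the 10 had enough reads to be tested. The members were chosen by name, with earlier results of these data known.

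RNA-seq was performed on MDA-MB-231, a human breast cancer cell line that the study classes as mesenchymal/basal-like. One group of 3 biological repeats carried a control shRNA and the other group of 3 carried Smyca shRNA #1, cloned in the lentiviral vector pLKO.1. The study used 4 shRNAs against Smyca, of which only #1 was sequenced, so an effect of Smyca and an effect particular to this shRNA cannot be told apart. The comparison asks how the transcriptome differs when Smyca, counted as MIR23AHG, is reduced.

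In epithelial-mesenchymal transition (EMT), the zinc-finger repressors of the SNAIL and ZEB families and the TWIST proteins shut off cell junction genes such as CDH1, which encodes E-cadherin. GRHL2 and OVOL1 are transcription factors that oppose these repressors, and GRHL2 and ZEB1 repress each other. ESRP1 and ESRP2 are RNA-binding proteins that keep epithelial splice forms of genes such as CD44 and FGFR2, and ZEB1 is a known repressor of ESRP1.

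Promoter and miRNA sequences are shown because SNAIL and ZEB proteins bind the E-box CAGGTG, and ZEB1 and ZEB2 are the best known targets of the miR-200 family. RefSeq windows from 250 bases before to 50 bases after a transcript start (GRCh38.p14) were at hand for 3 of the 10 members, with 7 windows for ZEB1 and 1 each for ZEB2 and TWIST2. CAGGTG, searched on both strands, was in 2 of the 7 ZEB1 windows and in neither the ZEB2 nor the TWIST2 window. The ZEB1 window with the most copies lies at chr10:31318966-31319265 on the plus strand and reads as follows, with CAGGTG or its reverse complement CACCTG in capitals:

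ZEB1 promoter window: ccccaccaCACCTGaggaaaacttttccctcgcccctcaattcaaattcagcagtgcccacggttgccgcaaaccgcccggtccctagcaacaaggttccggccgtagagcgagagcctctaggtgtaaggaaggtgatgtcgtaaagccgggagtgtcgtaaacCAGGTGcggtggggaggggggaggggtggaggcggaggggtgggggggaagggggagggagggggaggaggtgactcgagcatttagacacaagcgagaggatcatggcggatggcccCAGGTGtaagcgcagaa

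It holds 3 copies, whose first bases lie at -242, -85 and 33 when the first transcribed base is counted as 0. Of all 35116 windows, 20.6% held CAGGTG and 0.635% held 3 or more copies. The AP-1 motif TGANTCA (7.71% of all windows) and the palindromic Smad motif GTCTAGAC (0.202%) were in 0 of the 9 member windows. The 5 mature miR-200 miRNAs of RefSeq fall into 2 groups by their seed (bases 2 to 8, in capitals), and the first 3 share AAUACUG while the last 2 share AACACUG:

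hsa-miR-200b-3p: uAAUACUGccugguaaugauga

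hsa-miR-200c-3p: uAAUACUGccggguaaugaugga

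hsa-miR-429: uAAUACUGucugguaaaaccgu

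hsa-miR-141-3p: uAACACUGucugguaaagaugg

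hsa-miR-200a-3p: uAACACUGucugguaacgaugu

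Total counts lay between 14999307 and 16501085 per library. In normalized CPM, which are counts divided by a TMM-scaled library size, Smyca reached 25, 19.5 and 22.0 in control repeats 1, 2 and 3 against 10.5, 6.97 and 5.61 after knockdown. Its log2 ratio was 1.53 ± 0.26 (SE, n = 3 each, edgeR quasi-likelihood, Benjamini-Hochberg adjusted p = 0.111). Throughout, log2 ratios are control over knockdown, so positive values mark genes that were higher in the control, and each SE rests on 3 libraries a group. Control repeat 3 stood apart from the other controls, with correlations of 0.956 and 0.965 to them over 15068 genes against 0.991 between control repeats 1 and 2. It correlated better with the knockdown libraries (0.972 to 0.974), and knockdown repeat 3 (0.976 and 0.980 to the others of its group) stood somewhat apart from knockdown repeats 1 and 2 (0.991 to each other). The deposited FPKM column of control repeat 2 did not follow its count column and resembled control repeat 3 (r = 0.996). Results for the members are therefore also given without control repeat 3 and with the FPKM-derived reads of control repeat 2, where these move them.

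The expression profile went against the mesenchymal label in part. MDA-MB-231 is known for little E-cadherin and for abundant SRGN, yet CDH1 was at 188 ± 114 normalized CPM with control shRNA against 114 ± 50.2 with Smyca shRNA (SD, n = 3 each), and SRGN at 0.414 ± 0.229 and 0.370 ± 0.367. The summed level of 15 genes expected in the line was 1298 to 2735 normalized CPM in the control libraries and 1132 to 1607 in the knockdown libraries, with MSN, a cytoskeletal linker, the highest of them. None of the 15 was at 0 throughout, and 11 of the 14 tested were higher in the control at an unadjusted p under 0.05, as were 10.4% of all genes tested.

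Some intestinal and luminal breast markers were present as well, whereas the hepatocyte, fibroblast and leukocyte lists summed to little. The intestinal list of 15 genes summed to 422 to 703 in the control and to 692 to 871 in the knockdown, with the microvillus protein VIL1 highest (300.1 ± 69.0 and 460.0 ± 39.3), the hepatic and intestinal factor HNF4A, for which MDA-MB-231 is not known, at 140.2 ± 65.5 and 191 ± 4.61, CDX1 at 0, and FABP1, CEACAM5 and OLFM4 at 3 counts or fewer. The luminal breast list of 10 genes summed to 5986 to 6271 and 6565 to 9017, led by the keratin KRT8 (4580 ± 288 and 6332 ± 1172), with PGR at 0 and ESR1 and FOXA1 at 3 counts or fewer. The hepatocyte list (10 genes, led by SERPINA1, with APOB, AFP, TTR and FGB at 0) summed to 30.9 to 51.8 and 28.2 to 76.6. The fibroblast list (7 genes, led by THY1) summed to 3.59 to 19.8 and 4.13 to 7.66, and the leukocyte list (6 genes, led by CD14, with PTPRC at 0) to 1.72 to 2.31 and 0.762 to 1.85. The libraries are called by their labels here, and the part of these markers in the differences between groups was not tested. In bulk RNA, fewer cells of a type and less RNA per cell cannot be told apart.

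Among the members, the guardians ESRP2 and ESRP1 were far more abundant than any driver, which is not what is known of MDA-MB-231. To compare genes, levels were divided by the gene lengths that the deposited FPKM values imply. ESRP2 had the highest mean level in the control, at 141 ± 23.6 normalized CPM per kilobase, followed by ESRP1 at 61.4 ± 2.46, SNAI1 at 15.8 ± 1.26, SNAI2 at 12.8 ± 5.57 and ZEB1 at 4.90 ± 0.411 (SD, n = 3). In the knockdown the order was the same, at 226 ± 27.9 for ESRP2, 72.8 ± 11.8 for ESRP1, 8.72 ± 1.53 for SNAI1, 5.78 ± 1.92 for SNAI2 and 2.99 ± 0.421 for ZEB1 (SD, n = 3). SNAI1 and SNAI2 were the neighbours among these 5 whose repeats overlapped, both in the control, where SNAI2 reached 19.1 in repeat 1 against 17.2 for SNAI1, and in the knockdown, where SNAI2 reached 7.64 and SNAI1 went down to 7.28. The other members were below 1 per kilobase in both groups: GRHL2 at 0.174 and 0.529, TWIST2 at 0.128 and 0.297, OVOL1 at 0.0804 and 0.0713, and ZEB2 at 0.0662 and 0.0127 in control and knockdown, and the repeats of neighbours among these 4 overlapped in both groups. TWIST1 had no reads and is given no place.

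**Figure D1:**
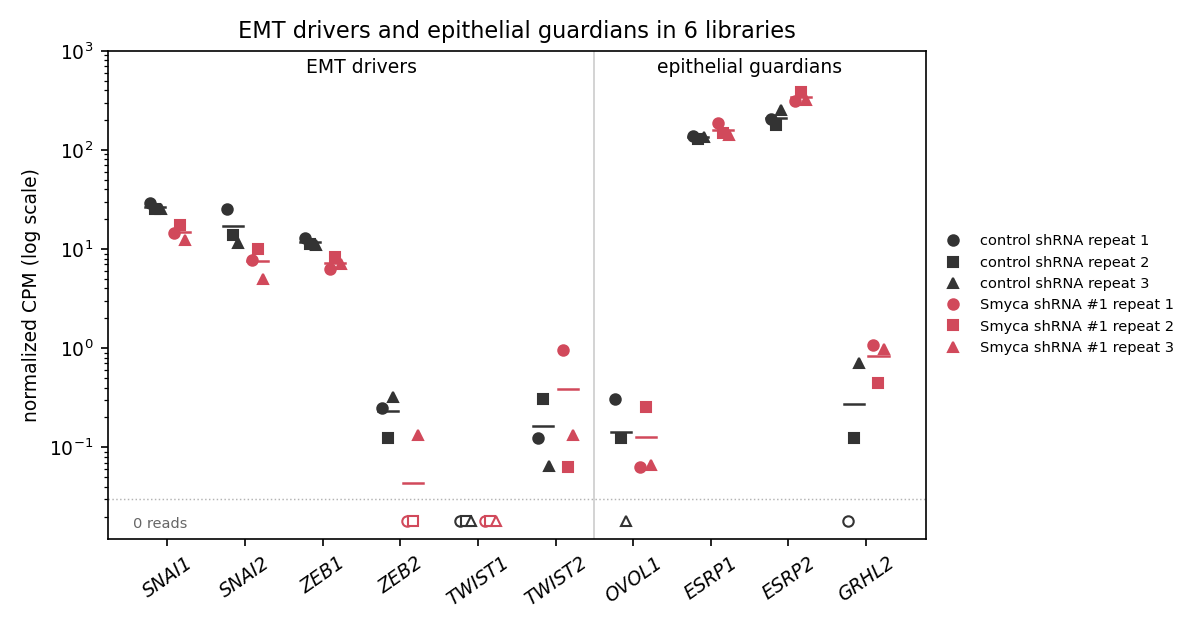
Normalized CPM (log axis) of the 10 members in each library, with control shRNA in dark grey and Smyca shRNA #1 in red, 1 marker shape per repeat and a bar at the mean of each group. Open markers below the dotted line are libraries with 0 reads. SNAI1, SNAI2 and ZEB1 lie between 5.02 and 29.1 with each control above each knockdown repeat, whereas ESRP1 and ESRP2 lie between 128 and 386 with each knockdown repeat above the controls.

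SNAI1 (chr20:49982980-49988886, plus strand, GRCh38 with GENCODE spans here and below), which encodes the repressor SNAIL, was lower in each knockdown library than in any control. It was at 29.1, 25.4 and 25.4 normalized CPM in the 3 control repeats against 14.4, 17.4 and 12.3 after knockdown. The lowest control stood above the highest knockdown repeat. The means were 26.6 ± 2.12 and 14.7 ± 2.58 (SD, n = 3), a ratio of 1.81. The log2 ratio was 0.86 ± 0.19 (SE, 95% interval 0.43 to 1.28, edgeR quasi-likelihood, Benjamini-Hochberg adjusted p = 0.111), so that SNAI1 was not called at an adjusted p under 0.05. It lay between 0.73 and 0.99 in all 14 alternative settings. The pseudogene SNAI1P1, which could share reads with it, had 0 counts in all 6 libraries.

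SNAI2 (chr8:48917598-48921740, minus strand) encodes SLUG, the second SNAIL-family repressor. It was at 25.2, 14 and 11.5 normalized CPM in the control repeats against 7.75, 10.1 and 5.02 after knockdown. The groups did not overlap, but control repeat 1 stood well above the other controls, and control repeat 3 was only slightly above knockdown repeat 2. The log2 ratio of 1.15 ± 0.36 (SE, 95% interval 0.32 to 1.97) had an adjusted p of 0.155 (edgeR quasi-likelihood, Benjamini-Hochberg). Without control repeat 1 it was 0.74, and SNAI2 then missed the test at an unadjusted p as well (edgeR quasi-likelihood, unadjusted 0.057). Without knockdown repeat 2 it was 1.39.

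ZEB1 (chr10:31318495-31529814, plus strand) encodes a zinc-finger and homeobox repressor of CDH1 and ESRP1. It was at 12.9, 11.3 and 11.1 normalized CPM with control shRNA against 6.22, 8.24 and 7.06 with Smyca shRNA. The groups did not overlap, and the repeats of each group were close together, with means of 11.8 ± 0.987 and 7.17 ± 1.01 (SD, n = 3). The log2 ratio was 0.71 ± 0.22 (SE, 95% interval 0.21 to 1.21, edgeR quasi-likelihood, Benjamini-Hochberg adjusted p = 0.149). With the FPKM-derived reads of control repeat 2 it was 0.59. ZEB1-AS1, an antisense lncRNA that overlaps the ZEB1 locus, had a log2 ratio of 0.92 ± 0.38 (SE) with overlapping groups. Since the strand setting of the counting is not given in the sources used here, reads of this pair cannot be assigned to ZEB1 alone with certainty.

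The other drivers were at the limit of detection. ZEB2 (chr2:144364364-144521057, minus strand), the second ZEB repressor, had 4, 2 and 5 counts in the control repeats and 0, 0 and 2 in the knockdown repeats. Summed over the group, this is 11 counts (exact 95% Poisson interval 5.49 to 19.7) against 2 (0.242 to 7.22), where the intervals cover counting error only. TWIST2 (chr2:238848032-238910534, plus strand), a basic helix-loop-helix repressor, had 2, 5 and 1 counts with control shRNA against 15, 1 and 2 with Smyca shRNA, so that 1 library held most of its reads. TWIST1 (chr7:19020991-19117636, minus strand), its close relative, had 0 counts in each of the 6 libraries. A count of 0 in all of them allows up to 3 counts, or 0.0316 CPM.

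Loci of the miR-200 family, whose mature products are printed above, were chosen after their values had been seen. The libraries were made from rRNA-depleted RNA and not with a small RNA kit. Reads at these loci are therefore taken as precursor or overlapping transcripts and not mature miRNAs, which was not tested. MIR429 had 54, 62 and 60 counts with control shRNA against 129, 132 and 44 with Smyca shRNA, with a log2 ratio of -0.82 ± 0.40 (SE, edgeR quasi-likelihood, Benjamini-Hochberg adjusted p = 0.305). MIR200B had 76, 69 and 65 counts in the control against 148, 95 and 16 in the knockdown. Knockdown repeat 3 was below the controls at both loci and the other knockdown repeats above them, so that the groups overlapped. MIR200A had 4 to 15 counts per library, MIR200C 1 to 14 and MIR141 0 or 1, with overlapping groups.

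ESRP2, the most abundant member, went the other way. ESRP2 (chr16:68229033-68238102, minus strand) was at 204, 180 and 250 normalized CPM in the control repeats against 310, 386 and 317 after knockdown. Each knockdown repeat was above each control repeat, and control repeat 3 was the highest control. The means were 211 ± 35.3 and 338 ± 41.8 (SD, n = 3), a 1.60-fold higher level in the knockdown. The log2 ratio was -0.68 ± 0.17 (SE, 95% interval -1.07 to -0.28, edgeR quasi-likelihood, Benjamini-Hochberg adjusted p = 0.125). It was -0.82 without control repeat 3 and -0.51 with the FPKM-derived reads of control repeat 2. The 3′ end of NFATC3 overlaps the locus, and NFATC3 had a log2 ratio of -0.53 ± 0.29 (SE) with overlapping groups.

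ESRP1 (chr8:94641074-94707466, plus strand), its paralog with the same role in splicing, showed a smaller difference that was not past the test. It was at 139, 128 and 134 normalized CPM with control shRNA against 188, 148 and 141 with Smyca shRNA. The groups were separated by less than 2 normalized CPM, and knockdown repeat 1 lay apart from the other repeats of its group. The log2 ratio was -0.25 ± 0.16 (SE, 95% interval -0.60 to 0.11, edgeR quasi-likelihood, Benjamini-Hochberg adjusted p = 0.419), and it was -0.11 without knockdown repeat 1. With total counts and no composition factor, and where at least 10 counts were required in every library, the ESRP1 groups overlapped.

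GRHL2 (chr8:101492439-101669726, plus strand), a grainyhead-like factor that maintains CDH1 and other junction genes, was scarce. It had 0, 2 and 11 counts in the control repeats and 17, 7 and 15 in the knockdown repeats. Control repeat 3 lay above knockdown repeat 2, so the groups overlapped, and they did not without either of these libraries. The sums were 13 counts (exact 95% Poisson interval 6.92 to 22.2) and 39 (27.7 to 53.3), and the log2 ratio was -1.59 ± 0.90 (SE, 95% interval -3.64 to 0.46, edgeR quasi-likelihood, Benjamini-Hochberg adjusted p = 0.367). This value moved with single libraries: it was -1.01 without control repeat 1, -3.61 (adjusted p = 0.044 in the same test) without control repeat 3, where the controls left had 0 and 2 counts and the fitted value is no bound, and -0.21 when the 25 FPKM-derived reads of control repeat 2 took the place of its 2 counts. OVOL1 (chr11:65787063-65797214, plus strand), a zinc-finger factor that represses ZEB1 in epithelia, had 5, 2 and 0 counts with control shRNA against 1, 4 and 1 with Smyca shRNA. With 7 counts against 6 in sum, a difference was not detectable at this depth.

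Counted together, 0 of the 6 members tested were called by edgeR's quasi-likelihood test (adjusted p under 0.05 with a ratio of 1.5 or more, or of 0.66 or less), where 4 of the 15075 genes tested (0.0265%) were called, all higher in the control. At an unadjusted p under 0.05, SNAI1, SNAI2 and ZEB1 were higher in the control (10.4% of genes tested were) and ESRP2 higher in the knockdown (8.74% of genes tested were), though SNAI2 was not among them without control repeat 1. The groups did not overlap with the control above in the same 3 drivers (12.4% of genes tested) and with the knockdown above in ESRP1 and ESRP2 (12.5%). For a single such gene, the two-sided exact permutation test gives p = 0.1, the smallest that 3 against 3 libraries allow. The median log2 ratio was 0.86 over the 3 drivers tested and -0.68 over the 3 guardians tested, beside 0.036 over all genes tested.

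Which members were called depended on the test, the filter and control repeat 3. DESeq2's Wald test called SNAI1 (adjusted p = 0.0072), SNAI2 (adjusted p = 0.042) and ESRP2 (adjusted p = 0.014), where it called 5.55% of all genes. With no filter beyond 1 count, edgeR's quasi-likelihood test called the same 3 members (adjusted p = 0.035, 0.032 and 0.025), where it called 3.01% of 30409 genes. Without control repeat 3, edgeR's quasi-likelihood test called SNAI1 (adjusted p = 0.030), SNAI2 (adjusted p = 0.039), ESRP2 (adjusted p = 0.020) and GRHL2, where it called 10.5% of genes. GRHL2, with 0 and 2 counts in the controls left, passed the filter there only through the knockdown libraries, where it was higher. Its call is therefore no support for a difference. ZEB1 and ESRP1 were called under none of the 14 alternatives, and ZEB1 came nearest with DESeq2 (adjusted p = 0.064), which gave GRHL2 no adjusted p. Over the alternatives the adjusted p ranged from 0.0072 to 0.440 for SNAI1, 0.032 to 0.460 for SNAI2, 0.064 to 0.440 for ZEB1, 0.014 to 0.440 for ESRP2, 0.312 to 0.748 for ESRP1 and 0.044 to 0.915 for GRHL2. The sign of the log2 ratio was the same in each setting in which a member was tested, and GRHL2 was not tested where at least 10 counts were required in every library.

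**Figure D2:**
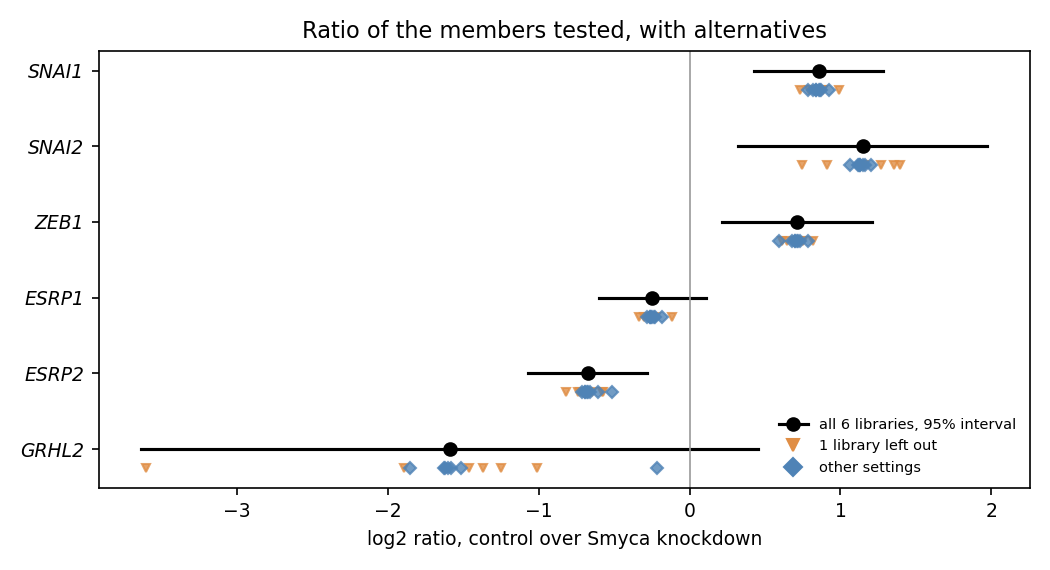
Log2 ratio of control over Smyca knockdown (x axis) for the 6 members tested, with the 95% interval from all 6 libraries in black, the values with 1 library left out as orange triangles and the other settings as blue diamonds. SNAI1, SNAI2 and ZEB1 stay right of 0 and the 3 guardians left of it in each setting in which they were tested, and GRHL2 ranges from -3.61 to -0.21.

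Ratios between members within a library do not depend on library scaling. These pairs were picked after the values had been seen and are descriptions. Where a guardian whose groups are separate with the knockdown above is divided by a driver separate the other way, the ratio must separate the groups too, so the sizes are given and not the separation as a result. Per kilobase, the log2 ratio of ESRP2 over ZEB1 was 4.66, 4.68 and 5.18 in the control repeats and 6.32, 6.23 and 6.17 in the knockdown repeats. From group means of 4.84 ± 0.293 and 6.24 ± 0.0755 (SD, n = 3), ESRP2 was 28.6 times ZEB1 in the control and 75.7 times in the knockdown. The FPKM column of control repeat 2 gave 5.58, between the groups. ESRP2 over SNAI1 was at 2.98, 3.0 and 3.47 in the control against 4.60, 4.64 and 4.86 in the knockdown (8.89 times and 26.0 times), and ESRP1 over ZEB1 at 3.57, 3.64 and 3.74 against 5.06, 4.30 and 4.45. The FPKM column of control repeat 2, at 3.73 and 4.0, again lay between the groups.

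Ratios were also taken within a class. SNAI1 over ZEB1 was at 1.68, 1.67 and 1.71 in the control repeats and 1.72, 1.59 and 1.31 in the knockdown repeats, and knockdown repeat 3 was the lowest. ESRP2 over ESRP1 was at 1.1, 1.03 and 1.44 against 1.27, 1.93 and 1.72. SNAI1 over SNAI2 was lowest in control repeat 1, at -0.15, and lay between 0.44 and 0.94 in the other 5 libraries.

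**Figure D3:**
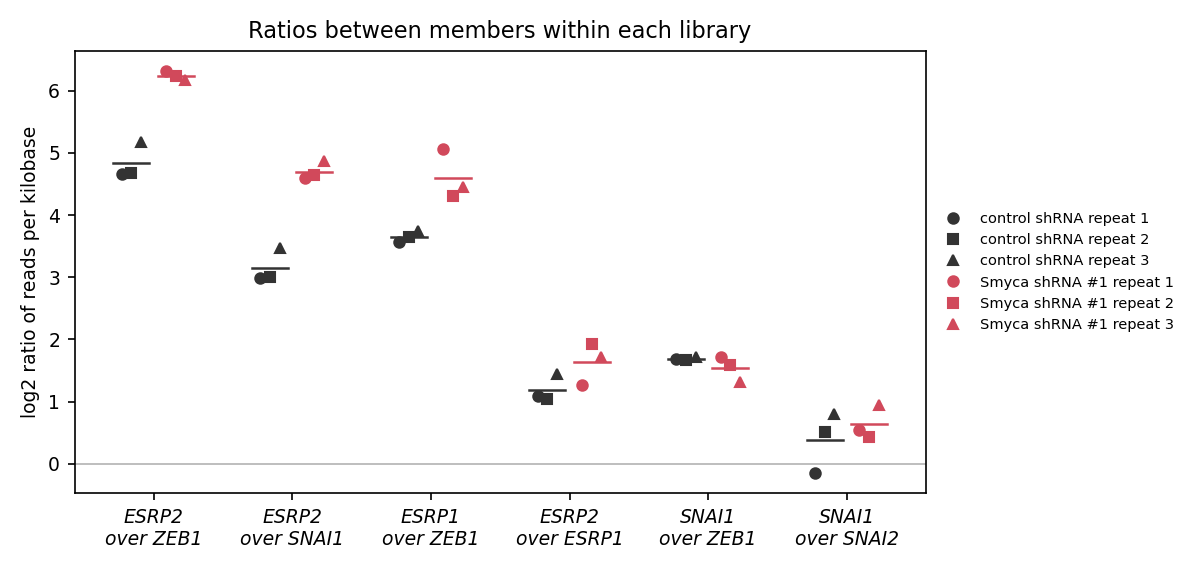
Log2 ratio of reads per kilobase between pairs of members (y axis) within each of the 6 libraries, with control shRNA in dark grey, Smyca shRNA #1 in red and a bar at each group mean. ESRP2 over ZEB1 lies at 4.66 to 5.18 in the control and at 6.17 to 6.32 in the knockdown, a separation that follows from the opposite order of the groups in the single genes.

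The rest of the EMT network was followed in 6 lists of 108 genes, of which 89 were tested. None of the 89 was called by edgeR's quasi-likelihood test (0.0265% of all genes were), while 11 were called by DESeq2 (5.55% of all genes) and 14 without control repeat 3 (10.5%). The counts below are therefore at an unadjusted p under 0.05, which 19.2% of all genes tested passed, and each p below is edgeR's (quasi-likelihood, adjusted by Benjamini-Hochberg where so named). Of the list genes named below as past it, SNAI3, TCF3, CTBP1, MBNL2, MARVELD2, MARVELD3, ITGA5, SIN3A and FBXL14 missed it under at least 1 alternative. VIM was not followed through the alternatives.

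Mesenchymal state genes had the largest median log2 ratio of the 6 lists. Of its 18 genes, 14 were tested, 7 were higher in the control, 0 higher in the knockdown and 7 not past the test, with a median log2 ratio of 0.97. Over all genes tested, 10.4% were higher in the control and 8.74% in the knockdown. The groups did not overlap with the control above in 3 of the 14 (12.4% of genes tested) and with the knockdown above in 1 (12.5%). The summed level of the list overlapped, at 1797.6 to 3254.5 normalized CPM in the control and 1663.8 to 2199.2 in the knockdown. ITGA5, the fibronectin receptor subunit, was at 172 ± 122 normalized CPM with control shRNA against 58.6 ± 12.6 with Smyca shRNA (SD, n = 3; log2 ratio 1.56, adjusted p = 0.169), and its groups overlapped because control repeat 3, at 50.5, was below 2 knockdown repeats. Its log2 ratio was 0.94 without control repeat 1 (unadjusted p = 0.063). With the FPKM-derived reads of control repeat 2, the log2 ratio of ITGA5 was 1.14 (edgeR quasi-likelihood, unadjusted p = 0.125). VIM, which encodes vimentin, was at 305, 200.3 and 148 with control shRNA against 71.2, 105 and 130 with Smyca shRNA, with no overlap (adjusted p = 0.131). CDH2, which encodes N-cadherin, had no more than 3 counts per library, and the matrix gene POSTN had 0. Without control repeat 3, 7 genes of this list were called, where 10.5% of all genes were.

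Of 24 epithelial targets of the repressors, 22 were tested, 2 were higher in the control, 2 higher in the knockdown and 18 not past the test, with a median log2 ratio of -0.06. These counts are near the background of 10.4% and 8.74% over all genes tested. The serine protease PRSS8 was at 2.80 ± 0.575 and 1.05 ± 0.387 (log2 ratio 1.41, adjusted p = 0.133) and the claudin CLDN4 at 234 ± 28.9 and 163 ± 19.9 (log2 ratio 0.53, adjusted p = 0.148), both higher in the control (SD, n = 3). The tight junction proteins MARVELD2 and MARVELD3 had log2 ratios of -0.52 (adjusted p = 0.220) and -0.47 (adjusted p = 0.239), and with the FPKM-derived reads of control repeat 2 MARVELD3 was at -0.24 (unadjusted p = 0.340). CDH1 was at 300.1, 192 and 71.5 with control shRNA against 93.8, 77.6 and 172 with Smyca shRNA, so that each knockdown repeat lay within the range of the controls (log2 ratio 0.72 ± 0.48 SE, 95% interval -0.38 to 1.81, adjusted p = 0.443). EPCAM, an epithelial adhesion molecule, was at 272 ± 55.3 and 266 ± 17.9 (SD, n = 3; 95% interval of the log2 ratio -0.36 to 0.43).

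EMT splicing factors, some of which act on the same splice choices as the ESRPs, were followed next. Of 12 genes, 11 were tested, 2 were higher in the control, 3 higher in the knockdown and 6 not past the test, with a median log2 ratio of -0.16. QKI, which promotes mesenchymal splicing, was at 35.3, 33.2 and 35.3 normalized CPM with control shRNA against 21.0, 16.2 and 25.4 with Smyca shRNA (log2 ratio 0.73, adjusted p = 0.126). MBNL2, a muscleblind factor, had a log2 ratio of 0.57 (adjusted p = 0.259) with overlapping groups, and it was at 0.37 without knockdown repeat 2 and at 0.28 (unadjusted p = 0.299) with the FPKM-derived reads of control repeat 2. PTBP1, a polypyrimidine tract repressor of exons, was higher in each knockdown repeat, at 1062 ± 109 with control shRNA against 1628 ± 215 with Smyca shRNA (SD, n = 3; log2 ratio -0.62, adjusted p = 0.126), and so was the splicing activator SRSF1 (log2 ratio -0.63, adjusted p = 0.141).

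Of 18 other EMT-promoting factors, 13 were tested, 2 were higher in the control, 2 higher in the knockdown and 9 not past the test, with a median log2 ratio of -0.05. SNAI3, the third SNAIL-family gene, was at 3.27, 4.43 and 0.768 normalized CPM with control shRNA against 0.952, 0.887 and 0.528 with Smyca shRNA (log2 ratio 1.83, adjusted p = 0.171). With the FPKM-derived reads of control repeat 2, the log2 ratio of SNAI3 was 0.90 (unadjusted p = 0.249). RUNX2, a Runt-domain factor, was at 22.1, 13.8 and 17.2 against 8.64, 4.62 and 8.12, with no overlap (log2 ratio 1.31, adjusted p = 0.114). TCF3, which encodes the E-box binding E12 and E47 proteins, and CTBP1, a corepressor recruited by ZEB1, had log2 ratios of -0.42 (adjusted p = 0.231) and -0.33 (adjusted p = 0.236), and TCF3 was at -0.27 without knockdown repeat 2. GSC, a homeobox gene, had 0 counts.

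Of 18 other epithelial-state factors, 12 were tested, 2 were higher in the control, 0 higher in the knockdown and 10 not past the test, with a median log2 ratio of 0.12. Over all genes tested, 10.4% were higher in the control and 8.74% in the knockdown, so these counts are near the background. Both that passed, the ETS factor ELF3 (42.2 ± 23.7 against 15.7 ± 2.31, log2 ratio 1.43, adjusted p = 0.122) and the Krüppel-like factor KLF4 (41.0 ± 10.3 against 17.7 ± 7.09, log2 ratio 1.21, adjusted p = 0.129), were higher in the control without overlap (SD, n = 3). ELF3 rested in part on control repeat 1, and its log2 ratio was 0.86 without it. The closest relatives of the guardians were not past the test: OVOL2 was at 5.42 ± 0.810 and 7.77 ± 1.76 (log2 ratio -0.52 ± 0.27 SE) and GRHL1 at 7.30 ± 0.837 and 6.37 ± 0.622 (log2 ratio 0.20 ± 0.24 SE). ELF5 had 0 counts, and FOXA1 and TP63 at most 3 in any library.

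Of 18 genes that control SNAIL protein, 17 were tested, 1 was higher in the control, 3 were higher in the knockdown and 13 not past the test, with a median log2 ratio of -0.09. The 4 that passed are a share near the 19.2% of all genes. LOXL2, a lysyl oxidase that stabilizes SNAIL, was at 28.5, 18.5 and 6.28 normalized CPM with control shRNA against 2.86, 2.53 and 6.07 with Smyca shRNA (log2 ratio 2.22 ± 0.56 SE, adjusted p = 0.124). Control repeat 3 was barely above knockdown repeat 3, and the log2 ratio of LOXL2 was 1.81 with the FPKM-derived reads of control repeat 2. FBXL14, an F-box protein that targets SNAIL for degradation, was higher in each knockdown repeat (125 ± 7.49 against 185 ± 41.1 SD, n = 3, log2 ratio -0.57, adjusted p = 0.166), as was the corepressor SIN3A (log2 ratio -0.59, adjusted p = 0.212). The log2 ratio of SIN3A was -0.39 without control repeat 3 and -0.91 with the FPKM-derived reads of control repeat 2.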

How the data were processed

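RNA was sequenced from 3 control and 3 Smyca shRNA #1 repeats. Per the study's methods, rRNA was removed, strand-specific libraries were sequenced as paired ends, and reads were mapped to GRCh38 with TopHat2 2.0.12 and counted with HTSeq. The annotation release and the strand setting are not given in the sources used here. The authors deposited, for each library, a raw read count and an FPKM value for 58302 genes. The counts were used for the tests, and the deposited FPKM values to derive gene lengths, to check the counts, and to recover whole reads of control repeat 2 (99.9958% of 23593 genes within 0.05 of a whole read) as an alternative.

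GENCODE release 44 gave symbols for 57532 genes, and coordinates. Sequences came from RefSeq tables (GRCh38.p14). In R 4.3.3, edgeR 4.0.16 (TMM, filterByExpr, quasi-likelihood test) was fitted to all genes, without a block, and p-values were adjusted over the 15075 genes tested by the Benjamini-Hochberg method. The SE was taken from the F statistic. The study's criteria were used (adjusted p under 0.05 with a ratio of 1.5 or more, or of 0.66 or less), but not its DESeq. The biological coefficient of variation was 25.2%. The code was tested on simulated counts.

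The members, lists and tests were chosen with earlier results of these data known. All members were named, and, in each list, at most the 2 genes with the largest log2 ratio in each direction at an unadjusted p under 0.05, the highest gene of each marker list and the markers at 0. The values of 1 gene that this rule names are not reported here. CDH1, EPCAM, VIM, CDH2, SRGN, HNF4A, OVOL2, GRHL1, ZEB1-AS1, NFATC3, SNAI1P1 and the miR-200 loci were named after their values had been seen. Alternatives were RLE factors, total counts, 2 other filters (1 count in all, and 10 counts in each library), DESeq2 1.42.0, a block on the repeat number, 1 repeat left out at a time, the FPKM-derived reads of control repeat 2 and, added after the data had been seen, edgeR's exact test. P-values measure the spread between these 6 libraries.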

Additional observations from a re-analysis of the deposited data

Results flagged for a closer look

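The FPKM column of control repeat 2, which was outside the main comparison, held a higher CPM than each of the 3 control count columns for 3 members, and this is what marked them for a closer look. Of the 15075 genes tested, 3536 (23.5%) did the same, and 2 of these 3 members (ESRP2 and GRHL2) were among the genes tested. The column gave ESRP2 4522 reads, or 270 CPM against at most 260 in the control counts. It gave GRHL2 25 reads, or 1.49 CPM against at most 0.733. It gave ZEB2 13 reads, or 0.776 CPM against at most 0.333. For GRHL2 this was above the 0 to 11 counts of the 3 control count columns and also above the 7 to 17 counts of the knockdown libraries. Which of the 2 columns belongs to control repeat 2 was not tested.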

How the results depend on the processing

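The log2 ratios of Smyca, the 6 members tested and the list genes named as past the test kept their sign in each setting in which they were tested (GRHL2 and SNAI3 were not tested with at least 10 counts in every library). The other genes named, VIM among them, were not refitted one by one. With no low-count filter beyond 1 count, 3 members, 14 list genes and 916 genes in all (568 higher in the control, 348 in the knockdown) were called, and Smyca was called with a log2 ratio of 1.49. With DESeq2 these were 3, 11 and 836 (501 and 335), with 1.51 for Smyca. With edgeR's exact test, added after the data had been seen, they were 2, 10 and 749 (488 and 261), with 1.53 for Smyca. In all, 8 genes were called with total counts and 10 with the FPKM-derived reads of control repeat 2, and 0 members under both. With 1 repeat left out, 0 to 4 members, 0 to 14 list genes and 0 to 1628 genes were called, and Smyca lay between 1.33 and 1.81. The upper ends of the 3 counts came without control repeat 3 (1004 genes higher in the control, 624 in the knockdown). The 4 members there include GRHL2, which passed the filter only through the knockdown libraries. The cause of these differences was not tested. Members at an unadjusted p under 0.05 numbered 3 to 5, where 10.8% to 29.6% of all genes passed (3 members and 11.2% without control repeat 1, 5 members and 29.6% without control repeat 3), and those without overlap 4 to 6.

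Repeats with the same number did not deviate together (correlations of 0.0607, 0.0842 and -0.0139), and control repeat 1 correlated best with knockdown repeat 3 (0.0736), so the numbers are not taken as pairs. With the replicate block, 0 genes and 0 members were called (2568 genes, or 17%, at an unadjusted p under 0.05), with log2 ratios of 0.87 for SNAI1, 1.12 for SNAI2, 0.72 for ZEB1, -0.24 for ESRP1, -0.68 for ESRP2, -1.86 for GRHL2 and 1.56 for Smyca.

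Depth limited ZEB2, TWIST1, TWIST2, OVOL1 and GRHL2, which had at most 17 counts in any library.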
